A study of Mus musculus with 15 samples.

Results

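A set of 9 genes of transforming growth factor beta (TGF-beta) signalling was followed in mouse skin: the ligands Tgfb1, Tgfb2 and Tgfb3, the receptors Tgfbr1, Tgfbr2 and Tgfbr3, the latent binding protein family member Ltbp2, and the feedback targets Pmepa1 and Smad7. They were listed by name, with earlier results of these data known, and matched by Ensembl identifier to 9 of the 56059 genes in the deposited count table. All 9 passed the filter on low counts, which left 18651 genes tested. The skin came from mice given a bone marrow transplant to model the sclerodermatous form of chronic graft-versus-host disease, a fibrosis of the skin set off by donor lymphocytes. The combination group (n = 4) held allogeneic recipients given both drugs, 5 mg/kg of Wnt-C59 and 150 mg/kg of belumosudil, and the Wnt-C59 group (n = 4) held allogeneic recipients given Wnt-C59 alone at 5 mg/kg. The allogeneic vehicle group (n = 3) and the syngeneic vehicle group (n = 4) were given 0.4% methylcellulose. Dosing was by daily oral gavage between day 21 and day 49 after transplant, and skin was taken in week 7. Wnt-C59 blocks porcupine, which lipidates Wnt proteins before their release, and belumosudil is an oral kinase inhibitor. No group received belumosudil alone, and the strain, sex and age of the mice are not given in the sources used here. The combination libraries carry the letters RW, which no label spells out. They were matched to their group only because no other group was left, and the title of the series also names combinations with ruxolitinib and with ibrutinib.

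TGF-beta ligands are secreted in a latent form that is held in the extracellular matrix by latent binding proteins until integrins or proteases release it. The released ligand binds TGFBR2, which recruits and phosphorylates TGFBR1, and TGFBR1 phosphorylates SMAD2 and SMAD3, which enter the nucleus with SMAD4. TGFBR3, or betaglycan, presents ligand to TGFBR2, while SMAD7 and PMEPA1 are induced by the pathway and dampen it. In skin the pathway is known for driving fibroblasts to make collagen and for restraining keratinocyte growth and immune cells.

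Total estimated counts ran from 19.41 to 28.78 M (mega) in combination libraries, 18.99 to 21.60 M in Wnt-C59 libraries, 16.26 to 18.01 M in allogeneic vehicle libraries and 18.58 to 20.39 M in syngeneic vehicle libraries. Treated and vehicle libraries differed in more than the members. Between 44.8% and 60.6% of the nonzero estimated counts were not whole numbers (tolerance 1e-06) in the 8 treated libraries, against 31.1% to 34.4% in the 7 vehicle libraries. The nuclear RNA Malat1 stood at 58.1 to 128.0 CPM (counts per M, here of the unscaled total) in treated libraries, against 1165 to 3544 in vehicle libraries. The log2 fold change of a gene also moved with the GC content of its longest transcript, with Spearman's rho across genes of 0.54 for the combination and 0.50 for Wnt-C59 against allogeneic vehicle, and -0.10 for allogeneic against syngeneic vehicle. No label names a batch, so treatment and any such split cannot be told apart, and values with the GC trend removed are given beside the results of members that they change. Hair follicle markers summed to 37132 and 4887 CPM in combination libraries 4 and 5, against 64.7 and 45.2 CPM in combination libraries 2 and 3, and skeletal muscle markers spanned 19.8 to 27173 CPM in the same group. Keratinocyte markers, which check the tissue, summed to at least 12142 CPM in every library. Because the skin was measured in bulk, fewer cells of a type and less RNA per cell cannot be told apart, and no label says that samples of a group came from separate animals, so p-values measure the spread between these samples.

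Promoter sequence was matched for 5 of the 9 members. The 250 bases before the annotated start are shown for the ligand, the receptor and the latent binding protein on which the results turn, from RefSeq on build GRCm38.p6. They lie at chr7:25686752-25687001 on the plus strand for Tgfb1, at chr4:47352972-47353221 on the plus strand for the first of the Tgfbr1 starts, and at chr12:84876492-84876741 on the minus strand for Ltbp2. All run 5′ to 3′ along the gene's strand, and capitals mark the GC box (GGGCGG on either strand), the element bound by Sp1-type factors.
Tgfb1: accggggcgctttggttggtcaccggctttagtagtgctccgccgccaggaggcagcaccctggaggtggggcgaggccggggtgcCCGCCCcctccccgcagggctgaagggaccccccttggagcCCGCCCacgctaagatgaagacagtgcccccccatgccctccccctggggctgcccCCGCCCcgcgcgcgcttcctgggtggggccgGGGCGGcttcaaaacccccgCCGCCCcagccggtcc
Tgfbr1: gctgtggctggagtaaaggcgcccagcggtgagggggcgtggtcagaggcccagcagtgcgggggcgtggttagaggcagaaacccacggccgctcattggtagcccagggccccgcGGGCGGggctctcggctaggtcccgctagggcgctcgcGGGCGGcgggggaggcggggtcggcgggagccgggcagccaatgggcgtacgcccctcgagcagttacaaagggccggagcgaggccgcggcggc
Ltbp2: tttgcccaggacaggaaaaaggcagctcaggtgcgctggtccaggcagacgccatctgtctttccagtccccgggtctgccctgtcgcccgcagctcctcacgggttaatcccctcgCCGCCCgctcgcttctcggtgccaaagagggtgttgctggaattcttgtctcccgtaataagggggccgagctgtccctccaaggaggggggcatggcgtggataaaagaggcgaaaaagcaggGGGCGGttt
The Tgfb1 window held 5 GC boxes and 75.2% GC, the Tgfbr1 window 2 GC boxes and 74.8% GC, and the Ltbp2 window 2 GC boxes and 61.6% GC. A GC box stood in 32.7% of all 32851 RefSeq windows of this length. The SMAD box (CAGAC on either strand, with no overlap with the GC box) occurred 2 times in the Ltbp2 window and in neither of the others, and it stood in 42.2% of all windows. These are letter matches and not binding sites. The Tgfb2 window, not printed, held a match to TATAAA, which stood in 12.4% of windows, and none of the 6 windows of the 5 members held TGANTCA, the AP-1 motif, which stood in 6.75%.

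Tgfb1, the main TGF-beta isoform of immune cells and healing skin, was the ligand with the largest differences from syngeneic vehicle skin. It stood at 140, 125, 92.3 and 110 CPM in combination skin, at 74.5, 84.2, 86.2 and 79.3 CPM in Wnt-C59 skin, at 86.0, 59.99 and 75.8 CPM in allogeneic vehicle skin and at 31.8, 26.3, 38.8 and 36.1 CPM in syngeneic vehicle skin. CPM here are scaled by TMM, and libraries are listed by their column number. Every allogeneic recipient, treated or not, was above every syngeneic library, and the combination libraries lay above all others, while Wnt-C59 and allogeneic vehicle libraries overlapped. Tgfb1 was 2.22-fold higher in allogeneic than in syngeneic vehicle skin (log2 fold change 1.15, SE 0.17, edgeR quasi-likelihood adjusted p = 0.00021). This was 1 of 2 members called in that comparison, where 29.8% of all tested genes were called at an adjusted p under 0.05, 14.6% up and 15.1% down. Against syngeneic skin, Tgfb1 was also higher in the combination (1.81, SE 0.16, adjusted p = 4.4e-06) and in Wnt-C59 skin (1.29, SE 0.16, adjusted p = 3.2e-05).

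In neither treated group was Tgfb1 down at the syngeneic level. Against allogeneic vehicle, the log2 fold change was 0.66 in the combination (SE 0.17, adjusted p = 0.0049) and 0.13 in Wnt-C59 skin (SE 0.17, adjusted p = 0.54). With the GC trend removed, the combination's value was 0.29 (adjusted p = 0.18), which ends the call, and that of Wnt-C59 was -0.20 (adjusted p = 0.35). Combination and Wnt-C59 libraries did not overlap for Tgfb1, which held for 13.1% of all tested genes, and their difference was 0.52 (95% interval 0.19 to 0.86, edgeR adjusted p = 0.10, DESeq2 adjusted p = 0.025). Macrophage markers, in a list of 8, summed to 1150 to 2119 CPM in the combination, 974 to 1566 CPM in Wnt-C59, 3178 to 4467 CPM in allogeneic vehicle and 422 to 758 CPM in syngeneic vehicle skin. T cell markers, also 8, summed to 39.6 to 74.6, 32.1 to 50.6, 68.4 to 107 and 10.2 to 14.8 CPM in the same groups, and no marker of either list was at 0 throughout a group. Their part in the Tgfb1 result was not tested.

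Tgfb2 and Tgfb3, the isoforms best known from development, differed less between groups. Tgfb2 had 10.9, 5.05, 5.76 and 7.33 CPM in combination skin, 9.17, 11.8, 9.53 and 9.17 CPM in Wnt-C59 skin, 6.5, 12.5 and 10.1 CPM in allogeneic vehicle skin and 10.9, 10.4, 12.4 and 8.73 CPM in syngeneic vehicle skin. The groups overlapped, and no comparison passed the test, with edgeR adjusted p between 0.081 and 0.94; without combination library 2 its difference from allogeneic vehicle was -0.68 (adjusted p = 0.034) and from syngeneic vehicle -0.81 (adjusted p = 0.012). Tgfb3 had 22.7, 22.7, 16.1 and 27.0 CPM in combination skin, 23.8, 31.4, 28.2 and 25.8 CPM in Wnt-C59 skin, 20.8, 20.9 and 18.1 CPM in allogeneic vehicle skin and 23.3, 15.3, 21.9 and 19.1 CPM in syngeneic vehicle skin. All Wnt-C59 libraries lay above all vehicle libraries. The Tgfb3 difference was 0.45 against syngeneic vehicle (SE 0.17, adjusted p = 0.037) and 0.45 against allogeneic vehicle (SE 0.19, adjusted p = 0.056). The call against syngeneic skin ended when Wnt-C59 library 2, 4 or 5 or syngeneic library 2 or 4 was left out, without the filter on low counts (adjusted p = 0.083), and with the GC trend removed, where the difference was 0.16 (adjusted p = 0.46). Against allogeneic vehicle, Tgfb3 passed under upper-quartile scaling (adjusted p = 0.043), with only both groups fitted (adjusted p = 0.038) and without Wnt-C59 library 1 (adjusted p = 0.048), and the GC trend removed gave 0.08 (adjusted p = 0.77).

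**Figure D1:**
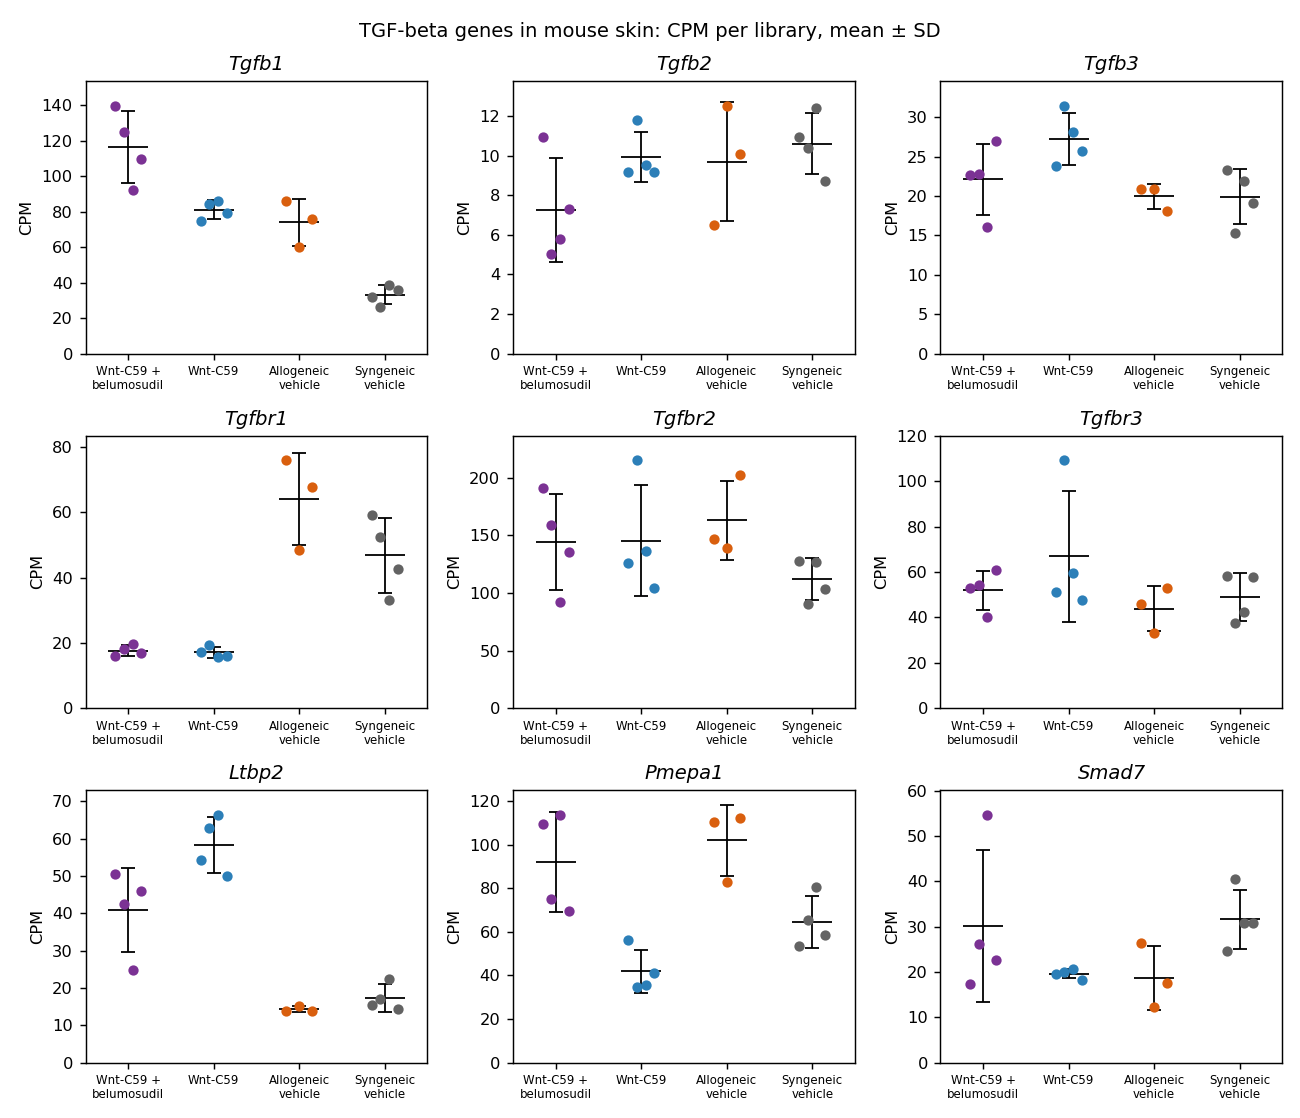
TMM-scaled CPM of the 9 members in each of the 15 libraries, 1 panel a gene with its own axis from 0; points are libraries and bars are group means with SD. Tgfb1 stands at 26.3 to 38.8 CPM in syngeneic vehicle skin and at 59.99 CPM or more in every allogeneic recipient, while Tgfbr1 stands at 15.7 to 19.7 CPM in treated skin and at 33.0 CPM or more in vehicle skin.

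Tgfb1 made up a larger share of ligand transcripts in every library of allogeneic recipients than in any syngeneic one. As a percent of the TPM (transcripts per M, from counts divided by transcript length) of all 3 ligands, Tgfb1 made up 86.0%, 86.3%, 85.9% and 81.9% in combination skin, 76.7%, 73.8%, 76.7% and 76.6% in Wnt-C59 skin, 81.8%, 73.0% and 80.1% in allogeneic vehicle skin and 57.8%, 61.0%, 62.9% and 65.6% in syngeneic vehicle skin. The combination libraries lay above those of Wnt-C59, and Wnt-C59 and allogeneic vehicle libraries overlapped. The mean share was 16.5 percentage points higher in allogeneic than in syngeneic vehicle skin (exact two-sided permutation p = 0.057, the smallest that 35 arrangements allow). It was 9.08 points higher in the combination than in Wnt-C59 skin (exact permutation p = 0.029, the smallest that 70 arrangements allow), 6.72 points higher in the combination than in allogeneic vehicle skin (exact permutation p = 0.057), and 2.36 points lower in Wnt-C59 than in allogeneic vehicle skin (exact permutation p = 0.46). Adjusted over these 4 comparisons by Benjamini-Hochberg, the exact permutation p was 0.076 for the first 3. Tgfb3 averaged 12.3% ± 2.08, 19.4% ± 1.07, 16.3% ± 2.63 and 28.2% ± 2.71 of ligand TPM in combination, Wnt-C59, allogeneic vehicle and syngeneic vehicle skin (SD, n = 4, 4, 3 and 4). Tgfb2 averaged 2.65%, 4.67%, 5.38% and 10.0% in the same groups.

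**Figure D2:**
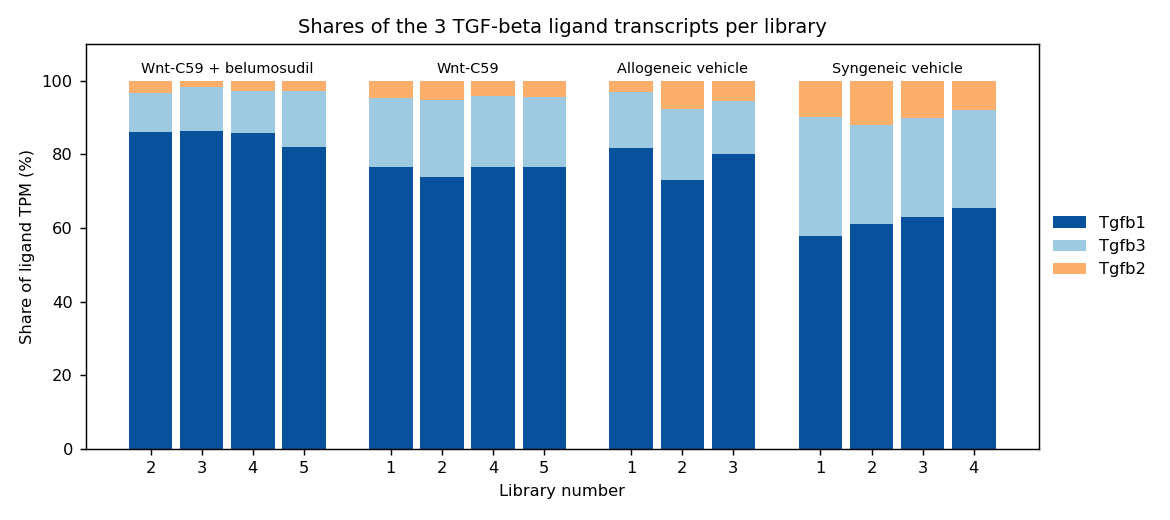
Percent of the summed TPM of Tgfb1, Tgfb2 and Tgfb3 that each ligand makes up in each library, groups from left to right combination, Wnt-C59, allogeneic vehicle and syngeneic vehicle. The Tgfb1 share is 81.9% to 86.3% in combination skin and 57.8% to 65.6% in syngeneic vehicle skin.

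Tgfbr1, the type I receptor kinase that phosphorylates SMAD2 and SMAD3, was lower in treated skin than in either vehicle group. It had 16.1, 18.0, 19.7 and 16.7 CPM in combination skin, 17.1, 19.4, 15.7 and 16.1 CPM in Wnt-C59 skin, 75.9, 48.5 and 67.9 CPM in allogeneic vehicle skin and 59.1, 52.5, 33.0 and 42.5 CPM in syngeneic vehicle skin. Every treated library was below every vehicle library, and the treated groups overlapped. Against allogeneic vehicle, Tgfbr1 was 3.75-fold lower in Wnt-C59 skin (log2 fold change -1.91, SE 0.19, edgeR adjusted p = 7.8e-06), and the combination gave -1.86 (SE 0.19, adjusted p = 6.7e-06). These comparisons share the allogeneic vehicle libraries. Against syngeneic vehicle the values were -1.41 in the combination (adjusted p = 2.9e-05) and -1.45 in Wnt-C59 skin (adjusted p = 3.5e-05). The difference between combination and Wnt-C59 was 0.04, with a 95% interval of -0.34 to 0.43.

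Its transcript has the lowest GC content of the members, 41.0%, against a median of 49.7% over tested genes. In the bin of genes with that GC content, the median log2 fold change was -1.13 for the combination and -0.96 for Wnt-C59 against allogeneic vehicle. With the GC trend removed, Tgfbr1 stood at -0.85 in the combination (adjusted p = 0.0011) and at -1.06 in Wnt-C59 skin (adjusted p = 0.00031), and against syngeneic vehicle at -0.53 (adjusted p = 0.013) and -0.74 (adjusted p = 0.002). The difference of 0.45 between allogeneic and syngeneic vehicle skin did not pass (SE 0.19, adjusted p = 0.087), but did without allogeneic library 2 (0.67, adjusted p = 0.017) or syngeneic library 1 (0.61, adjusted p = 0.03).

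Tgfbr2, the ligand-binding type II receptor, had 191, 159, 91.8 and 136 CPM in combination skin, 126, 215, 136 and 104 CPM in Wnt-C59 skin, 147, 139 and 203 CPM in allogeneic vehicle skin and 128, 90.3, 127 and 103 CPM in syngeneic vehicle skin. All allogeneic vehicle libraries were above all syngeneic ones, as for 36.7% of tested genes, yet the difference of 0.54 did not pass (SE 0.26, edgeR adjusted p = 0.14), and the treated groups overlapped both vehicle groups. The combination differed from Wnt-C59 by -0.01, with a 95% interval of -0.53 to 0.51. Without combination libraries 4 and 5, Tgfbr2 was 0.69 above syngeneic vehicle (adjusted p = 0.038). Tgfbr3, the betaglycan co-receptor, had 52.8, 54.2, 40.1 and 60.7 CPM in combination skin, 51.1, 109, 59.8 and 47.5 CPM in Wnt-C59 skin, 45.8, 33.2 and 52.8 CPM in allogeneic vehicle skin and 58.4, 37.7, 42.5 and 58.0 CPM in syngeneic vehicle skin. Its groups overlapped in every pair, with Wnt-C59 library 2 above all others, and no comparison passed. Its largest difference from allogeneic vehicle was 0.61 in Wnt-C59 skin (SE 0.28, adjusted p = 0.081), which passed without Wnt-C59 library 5 (adjusted p = 0.045).

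Ltbp2 is a matrix protein of the latent binding family that associates with elastic fibres and, unlike its relatives, does not bind the latent ligands. It was the member with the largest rise above allogeneic vehicle in both treated groups. It had 50.4, 42.5, 24.9 and 45.9 CPM in combination skin, 54.3, 62.7, 66.4 and 50.1 CPM in Wnt-C59 skin, 13.8, 15.2 and 13.8 CPM in allogeneic vehicle skin and 15.5, 17.02, 22.5 and 14.2 CPM in syngeneic vehicle skin. Every treated library was above every vehicle library, with combination library 4 the lowest of them, and the vehicle groups overlapped. Against allogeneic vehicle, Ltbp2 was 4.10-fold higher in Wnt-C59 skin (2.03, SE 0.23, edgeR adjusted p = 1.4e-05) and the combination gave 1.52 (SE 0.23, adjusted p = 7.5e-05). Against syngeneic vehicle it was 1.75 in Wnt-C59 skin (adjusted p = 2.3e-05) and 1.24 in the combination (adjusted p = 0.00016). The combination differed from Wnt-C59 by -0.51 (95% interval -0.94 to -0.09, adjusted p = 0.17), and the 2 groups overlapped.

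Ltbp2 has the highest GC content of the members, 58.5%, and the median log2 fold change of genes in that bin was 0.90 for the combination and 0.79 for Wnt-C59 against allogeneic vehicle. With the GC trend removed, Ltbp2 stood at 0.69 in the combination (adjusted p = 0.012) and at 1.27 in Wnt-C59 skin (adjusted p = 3e-04), and against syngeneic vehicle at 0.65 (adjusted p = 0.0088) and 1.23 (adjusted p = 0.00017). Dermal fibroblast markers, in a list of 8, summed to 2789 to 5741 CPM in the combination, 2678 to 6304 CPM in Wnt-C59, 1071 to 1722 CPM in allogeneic vehicle and 3109 to 7874 CPM in syngeneic vehicle skin, with none at 0 throughout a group. The collagen genes Col1a1 and Col1a2 had the highest means of the list, at 2115 and 1782 CPM in syngeneic vehicle skin. Of the 8 markers, 6 rose in each treated group against allogeneic vehicle, and Pdgfra and Mfap5 were called in neither. Over all tested genes, 27.1% rose in the combination and 24.6% in Wnt-C59 skin. With the GC trend removed, 5 rose in each (background 43.8% and 40.5%, either direction). Adipocyte markers summed to 1405 to 1881, 828 to 1949, 370 to 641 and 720 to 1314 CPM in combination, Wnt-C59, allogeneic vehicle and syngeneic vehicle skin. The part of these cells in the result was not tested.

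**Figure D3:**
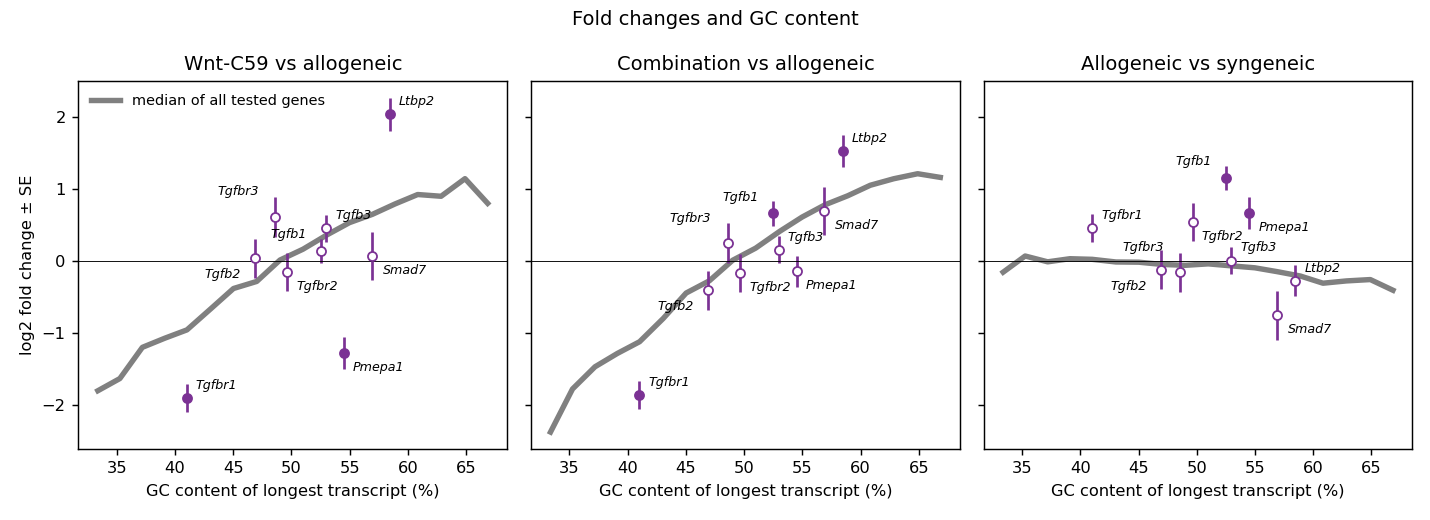
Log2 fold change with SE of each member (points; filled, adjusted p under 0.05) against the GC content of its longest transcript, for Wnt-C59 and the combination against allogeneic vehicle and for allogeneic against syngeneic vehicle; the line is the median of all tested genes by GC bin. Tgfbr1 at 41.0% GC and Ltbp2 at 58.5% GC lie on the same side of 0 as the line in both treated comparisons, and Pmepa1 at 54.5% lies below it.

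Pmepa1, a membrane protein that sequesters SMAD2 and SMAD3 and ubiquitin ligases, differed between the 2 treatments. It had 109, 75.0, 114 and 69.6 CPM in combination skin, 56.0, 34.9, 35.6 and 41.1 CPM in Wnt-C59 skin, 110, 83.0 and 112 CPM in allogeneic vehicle skin and 53.3, 65.5, 80.4 and 58.6 CPM in syngeneic vehicle skin. All Wnt-C59 libraries were below all allogeneic vehicle and all combination libraries. Combination and allogeneic vehicle libraries overlapped, and allogeneic vehicle libraries lay above syngeneic ones. Pmepa1 was 2.43-fold lower in Wnt-C59 than in allogeneic vehicle skin (-1.28, SE 0.22, edgeR adjusted p = 0.00028), and -1.77 with the GC trend removed (adjusted p = 4.7e-05). It was 2.19-fold higher in the combination than in Wnt-C59 skin (1.13, 95% interval 0.69 to 1.57, adjusted p = 0.046), the single member called in a comparison where 0.231% of all tested genes were called, 0.102% up and 0.129% down. That call ended when any 1 library other than combination library 5 was left out (adjusted p between 0.055 and 0.13), or with only both groups fitted (adjusted p = 0.07), while the difference stayed above 0. Over all tested genes, these fits called 1 to 45 with 1 library left out and 18 with only both groups fitted, against 43.

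In the combination, Pmepa1 differed from allogeneic vehicle by -0.15 (SE 0.22, adjusted p = 0.59), and by -0.71 with the GC trend removed (adjusted p = 0.014). Between allogeneic and syngeneic vehicle skin, Pmepa1 was 1.58-fold higher (0.66, SE 0.22, adjusted p = 0.034). That call ended without allogeneic library 1 or 3 or syngeneic library 1, 2 or 4 (adjusted p between 0.07 and 0.11), and without the filter on low counts (adjusted p = 0.065). Against syngeneic vehicle, Pmepa1 was -0.62 in Wnt-C59 skin (SE 0.20, adjusted p = 0.019) and 0.51 in the combination (SE 0.20, adjusted p = 0.045), with overlapping libraries in both. With the GC trend removed these were -0.98 (adjusted p = 0.0014) and 0.08 (adjusted p = 0.78). The first call ended without Wnt-C59 library 2 or 4 or syngeneic library 2 or 3 (adjusted p between 0.058 and 0.06), and the second without combination library 2 or 4 or syngeneic library 1, 2 or 4 (adjusted p between 0.078 and 0.13). The second also ended under both other scalings, without the filter and with only both groups fitted (adjusted p between 0.057 and 0.061).

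Smad7, the inhibitory SMAD that blocks and degrades the type I receptor, was called in 0 of 6 comparisons by edgeR; 2 had an unadjusted p under 0.05, DESeq2 called 1 and limma-voom 0. It had 17.3, 26.3, 54.7 and 22.6 CPM in combination skin, 19.6, 19.99, 20.7 and 18.2 CPM in Wnt-C59 skin, 26.4, 12.3 and 17.5 CPM in allogeneic vehicle skin and 24.7, 40.4, 30.7 and 30.8 CPM in syngeneic vehicle skin. The Wnt-C59 libraries lay below all syngeneic ones, as for 50.6% of tested genes, and combination library 4, with the hair follicle reads given above, was the highest. Against syngeneic vehicle, Smad7 was -0.69 in Wnt-C59 skin (SE 0.31, edgeR adjusted p = 0.073), which passed with the GC trend removed (-1.16, adjusted p = 0.0094) and with only both groups fitted (adjusted p = 0.0032), and by DESeq2 (adjusted p = 0.05 after rounding). Allogeneic against syngeneic vehicle gave -0.76 (SE 0.34, adjusted p = 0.11), which passed without allogeneic library 1 (-1.08, adjusted p = 0.049). The combination against allogeneic vehicle gave 0.69 (SE 0.34, adjusted p = 0.098). That value was 0.88 without combination library 2 (adjusted p = 0.033), 1.02 without allogeneic library 1 (adjusted p = 0.037), 0.23 without combination libraries 4 and 5 (adjusted p = 0.55) and -0.07 with the GC trend removed (adjusted p = 0.89).

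**Figure D4:**
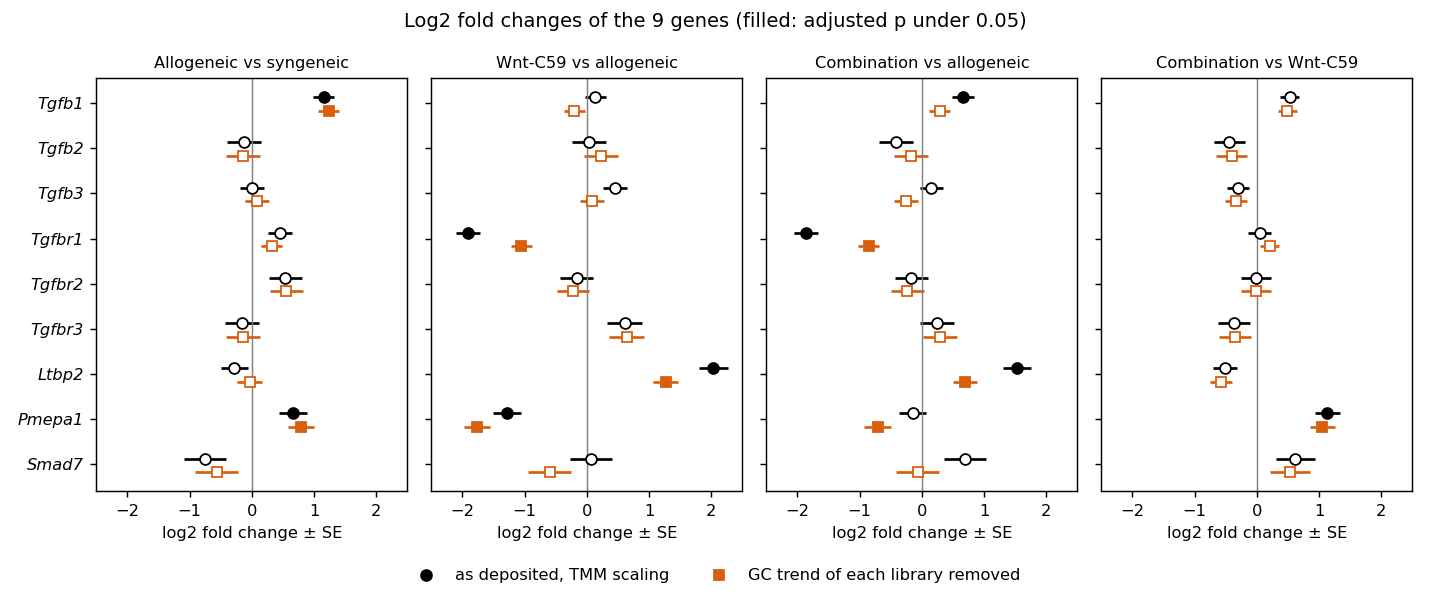
Log2 fold change with SE of the 9 members in the 4 main comparisons, as fitted by edgeR (circles) and with the GC trend of each library removed (squares); filled symbols have an adjusted p under 0.05. Against allogeneic vehicle, Tgfbr1 lies below 0 and Ltbp2 above 0 in both fits, Tgfb1 in the combination is filled in 1 fit (0.66 against 0.29), and Pmepa1 alone is filled between the combination and Wnt-C59.

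Over the 9 members, 2 rose and 0 fell in allogeneic against syngeneic vehicle skin by edgeR; 1 had a lower value at an unadjusted p under 0.05, and 0 fell by DESeq2 or limma-voom. Against allogeneic vehicle, 2 rose (Tgfb1 and Ltbp2) and 1 fell (Tgfbr1) in the combination, where 54.5% of all tested genes were called, 27.1% up and 27.4% down. In Wnt-C59 skin 1 rose (Ltbp2) and 2 fell (Tgfbr1 and Pmepa1), where 50.8% were called, 24.6% up and 26.2% down. Against syngeneic vehicle, 3 rose and 1 fell in the combination (background 54.1%, with 26.9% up and 27.2% down), and 3 rose and 2 fell in Wnt-C59 skin (background 53.1%, with 26% up and 27% down). The members' share was below the background in each of these comparisons except Wnt-C59 against syngeneic vehicle, where 5 of 9 stood beside 53.1%, so the counts do not set the members apart. Libraries of both groups did not overlap for 3 members in the combination and 4 in Wnt-C59 skin against allogeneic vehicle (background 52% and 53.5%), and for 3 and 5 against syngeneic vehicle (47.5% and 50.6%). The same held for 2 members between the combination and Wnt-C59 (13.1%) and 3 between the vehicle groups (36.7%). The median log2 fold change of the 9 members was 0.15 in the combination and 0.07 in Wnt-C59 skin against allogeneic vehicle, and 0.00 in allogeneic against syngeneic vehicle skin, with medians over all tested genes of 0.01, 0.00 and -0.07.

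Per transcript length, the order of the members changed between groups. In TPM, Tgfb1 led with 88.5 ± 15.3 in combination skin, 65.7 ± 3.98 in Wnt-C59 skin and 64.8 ± 15.0 in allogeneic vehicle skin, and stood at 34.6 ± 4.67 in syngeneic vehicle skin (SD, n = 4, 4, 3 and 4). In syngeneic skin it had rank 3, after Pmepa1 at 37.8 ± 4.33 and Tgfbr2 at 37.5 ± 8.54, and these 3 overlapped. Tgfb1 stood clear of the next member in combination and Wnt-C59 skin, and overlapped Pmepa1, at 50.8 ± 12.4, in allogeneic vehicle skin. Tgfb2 was the lowest in every group, at 2.78, 4.06, 4.23 and 5.59 TPM in combination, Wnt-C59, allogeneic and syngeneic vehicle skin, and overlapped Ltbp2 in both vehicle groups. Tgfbr1 had rank 4 of 9 in both vehicle groups, at 25.2 ± 6.96 TPM in allogeneic and 22.3 ± 7.82 TPM in syngeneic skin. In treated skin it had rank 8, at 5.98 ± 0.560 TPM in the combination and 6.24 ± 1.02 TPM with Wnt-C59, and overlapped neither neighbour. The members between these ranks mostly overlapped their neighbours. Lengths are those of the longest transcript, so TPM levels depend on which transcript the skin uses.

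Another 40 pathway genes, in lists of ligand storage and activation, signal transduction, inhibitors and target genes, were read beside the members. In allogeneic against syngeneic vehicle skin, 4 of 12 storage and activation genes rose and 2 fell, where 29.8% of all tested genes were called. Thbs1, a matrix protein that activates latent TGF-beta, averaged 272 ± 59.1 CPM in allogeneic and 72.8 ± 13.9 CPM in syngeneic skin (SD, n = 3 and 4; log2 fold change 1.90, edgeR adjusted p = 0.0014). Nrros, which tethers latent TGF-beta1 on myeloid cells, was higher by 1.61 (adjusted p = 0.00017), and Ltbp3, a latent binding protein, had a log2 fold change of -1.59 (adjusted p = 0.00035). Among 9 genes listed as inhibitors 2 rose and 2 fell. Bambi, a decoy receptor, averaged 2.75 ± 0.723 CPM in allogeneic and 55.0 ± 18.6 CPM in syngeneic skin (adjusted p = 0.005), and Smad6, the other inhibitory SMAD, had a log2 fold change of -2.52 (adjusted p = 0.0016). Hair follicle markers summed to 20.9 to 27.6 CPM in allogeneic and 7208 to 22169 CPM in syngeneic vehicle skin, and their part in these values was not tested. Of 13 target genes 4 rose and 2 fell, as by limma-voom, while 6 rose and 2 fell by an unadjusted p and by DESeq2. Of 6 signal transduction genes 2 rose (Eng and Acvrl1) and 0 fell, as by an unadjusted p, DESeq2 and limma-voom. Acvrl1 (0.85, edgeR adjusted p = 0.045) lost its call in several alternatives. Among these were upper-quartile scaling (adjusted p = 0.053), no filter (adjusted p = 0.079) and leaving out allogeneic library 1 (adjusted p = 0.19). Removing the GC trend gave 6 target genes that rose and 1 that fell, and 2 signal transduction genes that rose and 1 that fell (background 31.4%).

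Against allogeneic vehicle, integrin subunits differed in both directions in treated skin by edgeR, and of those listed Itgb5 alone was higher. Itgav, the alpha V subunit, averaged 24.7 ± 2.68 CPM in the combination and 28.4 ± 5.62 CPM in Wnt-C59 skin, against 121 ± 35.5 CPM in allogeneic vehicle skin (SD, n = 4, 4 and 3; log2 fold changes -2.30 and -2.10, edgeR adjusted p = 5.7e-06 and 1.2e-05). Itgb8, a beta subunit that pairs with it to release the ligand, had a log2 fold change of -2.43 in the combination (adjusted p = 2.5e-05) and -1.99 in Wnt-C59 skin (adjusted p = 0.00012). Itgb6, another such subunit, had one of -1.42 in the combination (adjusted p = 5.1e-05) and -1.75 in Wnt-C59 skin (adjusted p = 1.6e-05). In the combination, Itgav was -1.64 and Itgb8 -1.37 with the GC trend removed. Itgb5, a beta subunit of the same list that was chosen after its values were seen, was higher by 0.74 in the combination (adjusted p = 0.0044) and by 0.72 in Wnt-C59 skin (adjusted p = 0.0057). No value with the GC trend removed is given here for Itgb5, so that its rise is open to the GC trend. Of the 12 storage and activation genes, 4 rose and 3 fell in the combination, where 54.5% of all tested genes were called, and 3 rose and 5 fell in Wnt-C59 skin, where 50.8% were. Without combination libraries 4 and 5, 7 of them rose and 3 fell in the combination (background 47.9%). Removing the GC trend gave 2 that rose and 4 that fell in the combination (background 43.8%), and 2 that rose and 6 that fell in Wnt-C59 skin (background 40.5%). Ltbp4 was higher by 2.59 in Wnt-C59 skin (1.59 with the GC trend removed) and by 2.28 in the combination. Ltbp3 was higher by 1.98 in the combination (1.16 with the GC trend removed) and by 1.61 in Wnt-C59 skin. Of the 9 genes listed as inhibitors, 3 rose and 3 fell in the combination, and 2 rose and 3 fell in Wnt-C59 skin. Usp15, whose place in that list is uncertain, was among those that fell in both (-0.96 and -0.81). It lost its call in both with the GC trend removed. Skil, a SMAD co-repressor that the pathway itself induces, had a log2 fold change of -2.41 in the combination (adjusted p = 7.8e-06) and -2.87 in Wnt-C59 skin (adjusted p = 4.1e-06), and of -1.41 and -2.05 with the GC trend removed.

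Target genes moved both ways. Against allogeneic vehicle, 3 of 13 rose and 1 fell in the combination, where 54.5% of all tested genes were called (27.1% up, 27.4% down). In Wnt-C59 skin 3 rose and 2 fell, where 50.8% were called (24.6% up, 26.2% down). Without combination libraries 4 and 5, 5 rose and 2 fell in the combination, beside the background of 47.9% given above. Ccn2, a matricellular growth factor, averaged 99.5 ± 20.3 CPM in the combination and 125 ± 29.6 CPM in Wnt-C59 skin, against 43.8 ± 12.8 CPM in allogeneic vehicle skin (SD, n = 4, 4 and 3; log2 fold changes 1.18 and 1.51, edgeR adjusted p = 0.0014 and 0.00031). Cilp, a matrix protein, had log2 fold changes of 2.29 and 2.45 in the same comparisons (adjusted p = 0.0035 and 0.0027). Bhlhe40, a transcription factor, had one of -0.93 in the combination (adjusted p = 0.0064) and -1.32 in Wnt-C59 skin (adjusted p = 0.00069). Of the 6 signal transduction genes, 2 rose (Eng and Acvrl1) and 1 fell (Zfyve9) in each treated group, and all 3 lost their call in both groups with the GC trend removed, where 1 other gene rose and 1 other fell in each. The endothelial co-receptor Eng was 1.12 in the combination and 0.98 in Wnt-C59 skin, and 0.35 (adjusted p = 0.22) and 0.30 (adjusted p = 0.31) with the GC trend removed. The endothelial receptor Acvrl1 was 0.81 and 0.78, and 0.08 (adjusted p = 0.83) and 0.12 (adjusted p = 0.76) with it removed. Zfyve9, an anchor that brings SMAD proteins to the receptor, was -0.75 and -0.51, and -0.44 (adjusted p = 0.052) and -0.25 (adjusted p = 0.27) with it removed. Endothelial markers, in a list of 8, summed to 192 to 330 CPM in the combination and 283 to 427 CPM in Wnt-C59 skin. The sums were 229 to 360 CPM in allogeneic and 109 to 142 CPM in syngeneic vehicle skin. Their part in the Eng and Acvrl1 values was not tested. Between the combination and Wnt-C59, 0 of the 40 genes were called. At an unadjusted p under 0.05 edgeR had 10, of which 9 were higher in the combination. How many of all tested genes passed at that threshold was not counted, so these do not set the 40 apart. DESeq2 called 6 of the 40 and 1516 genes in all, and limma-voom 0 and 65. Without combination libraries 4 and 5 edgeR called 4 of the 40, all higher in the combination. With that choice 1.98% of all tested genes were called.

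The genes whose pattern over the 15 libraries lay closest to each member were read as the root-mean-square difference of centred log2 CPM among 15250 genes. Tgfbr1 had the closest neighbours, Tnpo1 at 0.13 and Sec24a at 0.15, against a spread of its own of 0.84. Tgfb1 lay closest to Eno1b and Litaf, both at 0.18, against 0.71, and Eno1b is a near-identical copy of Eno1, so its value is uncertain. Ltbp2 lay closest to Bmyc and Arsa, both at 0.24, against 0.86, and Pmepa1 to S1pr3 at 0.32 and Syt8 at 0.33, against 0.56. Tgfbr2 lay closest to Axl at 0.16, against 0.37, and Smad7 to Map3k6 at 0.24, against 0.51. Tgfb3 and Tgfbr3 shared their nearest gene, Rmnd1, at 0.14 and 0.26, and Tgfb2 lay closest to Sec22c at 0.22.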

How the data were processed

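Skin RNA of 15 libraries in 4 groups was measured by RNA sequencing. The authors deposited 1 table of estimated counts per gene, not scaled to library size, per the file headers, under versioned Ensembl mouse identifiers. HISAT2, featureCounts, Trim Galore, FastQC and build GRCm39 are named in the submitters' processing notes, with no versions. Strandedness is not given in the sources used here, and 6 members (Tgfb2, Tgfbr1, Tgfbr2, Tgfbr3, Ltbp2 and Smad7) overlap a predicted or noncoding gene in RefSeq, so reads of such pairs cannot be told apart. Symbols matched 51276 of 56059 identifiers (91.5%), from tables of another build that also gave GC content and transcript lengths.

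Values were rounded to whole numbers, as the design provided for counts that carry fractions, and fitted with edgeR 4.0.16 in R 4.3.3. The fit used TMM scaling, filterByExpr by group, a robust quasi-likelihood model over all 15 libraries with group as the only term, and Benjamini-Hochberg adjustment over 18651 genes at 0.05. SE and intervals come from this fit. TPM used the longest transcript. The GC trend was removed per library by a smoothing spline with 8 degrees of freedom, with GC known for 97.7% of tested genes. DESeq2 1.42.0, limma-voom (limma 3.58.1), other scalings, no filter, both groups alone, a replicate block and leaving out libraries were alternatives; leaving out combination libraries 4 and 5 was chosen after seeing the data. The fits were tested on simulated data. Likeness used log2 CPM with a prior count of 2, and the 2 nearest genes were taken; up to 3 called genes of a pathway list, by smallest adjusted p, were eligible to be named. Markers of epidermis, fibroblasts, macrophages, T cells, endothelium, fat, muscle and hair follicles were summed per library. Members and lists were chosen with earlier results of these data known. Treated libraries are numbered by their columns, not by their sample titles.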

Additional observations from a re-analysis of the deposited data

Results flagged for a closer look

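In groups of 4 libraries, a library was flagged where its gap to the nearest other, divided by the group's range, was above Dixon's critical value. This happened in 4 of 36 groups examined, and chance flags about 1 in 20. Tgfb2 stood at 11.8 CPM in Wnt-C59 library 2, against 9.17 to 9.53 CPM in the other Wnt-C59 libraries. Tgfb1 made up 73.8% of ligand TPM in the same library, against 76.6% to 76.7% in the others. In combination library 5, Tgfb1 made up 81.9% of ligand TPM, against 85.9% to 86.3% in the other combination libraries. Hair follicle markers summed to 4887 CPM in library 5 and to 37132 CPM in combination library 4. Skeletal muscle markers summed to 19.8 CPM in library 5, and the part of either tissue was not tested. Tgfb3 made up 32.2% of ligand TPM in syngeneic vehicle library 1, against 26.5% to 27.0% in the other syngeneic libraries.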

How the results depend on the processing

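Member calls in allogeneic against syngeneic vehicle fell to 1, against 2 in the fit reported, without the filter and with a replicate block; between combination and Wnt-C59 they were 2 by DESeq2 and 0 with only both groups fitted, against 1. Leaving out 1 library gave 1 to 3 calls between the vehicle groups, 3 to 4 for Wnt-C59 and 3 to 5 for the combination against allogeneic vehicle, 0 to 1 between the treated groups, and 3 to 5 for Wnt-C59 and 3 to 4 for the combination against syngeneic vehicle. Over all genes, the same fits called 3905 to 5076 between the vehicle groups and 1 to 45 between the treated groups. Against allogeneic vehicle they called 7942 to 9295 for Wnt-C59 and 8901 to 9814 for the combination. Against syngeneic vehicle they called 8242 to 9939 for Wnt-C59 and 8689 to 10238 for the combination. The Tgfb1 share difference between combination and Wnt-C59 ran from 8.38 to 10.1 points, with an exact permutation p of 0.057, the smallest such a design allows. No pairing of the vehicle libraries by replicate number was seen: deviations of same-numbered libraries correlated at -0.07, -0.09 and -0.03, and none correlated best with its own number. Because deviations were taken from means of 3 libraries, this check cannot exclude pairing. With the block and only the vehicle groups fitted 2968 genes were called, against 4857 in the same fit without it and 5556 in the fit to all libraries. Between combination and Wnt-C59, 1516 genes were called by DESeq2, 65 by limma-voom, 18 with only both groups fitted and 380 without combination libraries 4 and 5, against 43.

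Of the values that turned sign, only Usp15 was called in the fit reported. In allogeneic against syngeneic vehicle, Tgfb3 was -0.027 under upper-quartile scaling and -0.050 without the filter. In Wnt-C59 against allogeneic vehicle, Tgfb2 was -0.0032 by DESeq2 and -0.0028 under median-of-ratios scaling. Between combination and Wnt-C59, Tgfbr2 was 0.0040 by DESeq2, 0.0039 under median-of-ratios scaling, 0.032 without the filter, 0.034 with only both groups fitted and 0.28 without combination libraries 4 and 5; that choice gave it 0.12 against allogeneic vehicle. With the GC trend removed, Wnt-C59 against allogeneic vehicle gave -0.20 for Tgfb1 and -0.60 for Smad7, and the combination -0.25 for Tgfb3 and -0.068 for Smad7. Against syngeneic vehicle, it gave 0.091 for Tgfb2 in Wnt-C59 skin, and -0.17 for Tgfb3 and 0.11 for Usp15 (-0.61 before, called) in the combination. Leaving out 1 library turned, between the vehicle groups, Tgfb2 (-0.33 to 0.093), Tgfb3 (-0.073 to 0.11) and Tgfbr3 (-0.26 to 0.042). In Wnt-C59 against allogeneic vehicle it turned Tgfb1 (-0.0026 to 0.26), Tgfb2 (-0.19 to 0.26), Tgfbr2 (-0.41 to 0.0088) and Smad7 (-0.17 to 0.40). In the combination it turned Tgfbr2 against allogeneic vehicle (-0.34 to 0.020), Tgfbr1 (-0.012 to 0.11) and Tgfbr2 (-0.17 to 0.24) against Wnt-C59, and Smad7 against syngeneic vehicle (-0.52 to 0.12). Beyond what the construction of each alternative shows, the cause was not tested. Groups of 3 and 4 libraries limit all p-values.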

Other observations

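Target genes of the pathway were also set against syngeneic vehicle skin. Of 13, 8 rose in the combination and 3 in Wnt-C59 skin by edgeR at an adjusted p under 0.05, where 26.9% and 26% of all tested genes rose. Without combination libraries 4 and 5, 7 rose and 0 fell in the combination, where 53.4% of all tested genes were called in either direction. With the GC trend removed, 7 rose and 1 fell in the combination, and 4 rose and 1 fell in Wnt-C59 skin. The background was then 44.6% and 45.3%, either direction. Tgfbi, a matrix protein named for its induction by TGF-beta, averaged 555 ± 244 CPM in the combination and 602 ± 112 CPM in Wnt-C59 skin, against 147 ± 47.7 CPM in syngeneic vehicle skin (SD, n = 4 each; log2 fold changes 1.91 and 2.03, edgeR adjusted p = 0.00029 and 0.00023). Timp1, an inhibitor of matrix metalloproteinases, averaged 67.2 ± 57.6 CPM in the combination and 6.73 ± 2.46 CPM in syngeneic vehicle skin (SD, n = 4 each; log2 fold change 3.32, edgeR adjusted p = 0.0021), with 2.60 without combination library 3 and 4.04 without combination libraries 4 and 5.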
